A study of Caenorhabditis elegans with 2 samples.

Results

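The genes described here encode the Sm core proteins of Caenorhabditis elegans, snr-1 to snr-7. All 7 were chosen by name, out of 19973 protein-coding genes on the nuclear chromosomes, and all 7 were found in the annotation. The data are chromatin immunoprecipitation sequencing (ChIP-seq), in which sonicated chromatin is immunoprecipitated, here with anti-GFP, and regions with more fragments than a control are listed as peaks. There was 1 group, with 2 biological replicates: whole hermaphrodites at the young adult stage, of unknown age, from the transgenic strain OP429, whose genotype is unc-119(tm4063) III; wgIs429. The animals stably expressed F23B12.7 with a GFP-FLAG tag at its C-terminus, so each sample mixes every tissue of the animal, and signal cannot be assigned to a cell type. No second condition was sampled, so the values below describe 1 set of peaks and set the Sm genes beside all other protein-coding genes.

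Sm proteins form a ring around the U1, U2, U4 and U5 small nuclear RNAs (snRNAs), and this ring is the core of the particles that remove introns. The ring is built from preformed pieces, a pair of SmD1 and SmD2, a trimer of SmE, SmF and SmG, and a pair of SmB and SmD3, which the SMN complex places on the RNA. In C. elegans the spliced leader RNA, which is joined to the front of many messages by trans-splicing, carries an Sm ring too. In the RefSeq annotation the genes encode SmD3 (snr-1), SmB (snr-2), SmD1 (snr-3), SmD2 (snr-4), SmF (snr-5), SmE (snr-6) and SmG (snr-7).

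The authors deposited 4 lists of peaks in the genome build ce11 that were used here. Each replicate, and the reads of both pooled, had a list of 30000 peaks and background regions, and the fourth list held the 1707 peaks that passed a threshold on the irreproducible discovery rate (IDR), called IDR peaks below. The signal of a peak is the authors' own value, and its scale can change from list to list, so it was read within a list alone, and ranks run from 1 for the highest signal. The 1707 IDR peaks were the peaks of rank 1 to 1707 in the pooled list, with identical coordinates and signal, and the pooled list rests on the same reads as the replicate lists. Read depth is unknown for both replicates, because the lists hold no read totals. No IDR peak was found in reach of the tagged gene itself, F23B12.7 (14449697 to 14452976 of chromosome V), where reach means a summit at most 500 bp from the start. Its strongest peaks there ranked 5682 in replicate 1 and 11397 in replicate 2.

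The DNA under the summits of 3 of the IDR peaks at Sm genes is given first, since the results turn on these sites. Each sequence is the summit base with 50 bases of ce11 on either side, read from the RefSeq copy of the assembly on the coding strand of the Sm gene. Capitals mark a match to 1 of 4 motifs searched on both strands. They were the CCAAT box, the repeat GAGAGA, the TATA box as TATAAA, and the E-box CACGTG, which reads the same on both strands. No 2 matches overlapped in the windows shown. The windows lie at chrII:6489932-6490032 (minus strand) for snr-3, chrV:11980013-11980113 (minus strand) for snr-4 and chrIV:17087618-17087718 (plus strand) for snr-1.
snr-3: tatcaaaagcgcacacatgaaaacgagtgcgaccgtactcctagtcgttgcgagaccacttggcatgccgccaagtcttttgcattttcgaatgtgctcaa
snr-4: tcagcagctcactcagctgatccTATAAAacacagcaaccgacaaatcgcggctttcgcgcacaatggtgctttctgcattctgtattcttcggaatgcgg
snr-1: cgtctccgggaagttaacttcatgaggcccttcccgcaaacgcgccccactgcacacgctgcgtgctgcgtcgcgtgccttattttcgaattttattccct

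Of the 7 Sm genes, 5 had an IDR peak with its summit within 500 bp of the annotated start: snr-1, snr-2, snr-3, snr-4 and snr-6. Among all protein-coding genes, 1342 of 19973 had one, or 6.72%. The genes without were snr-5 and snr-7. All 7 had some peak within reach in the pooled list of 30000, where 37.2% of protein-coding genes did, and in the lists of replicate 1 (37.7%) and replicate 2 (37.6%). The median rank of the strongest pooled peak in reach was 1285 for the 7 Sm genes and 7505 for the 7433 protein-coding genes with any. The same medians were 2149 and 8256.5 in replicate 1, and 1553 and 8744 in replicate 2.

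The IDR peaks at Sm genes lay near the middle or the lower part of that set in signal, with the exceptions of snr-3 and snr-4. Their median signal was 48.6 over 5 genes, against 53.9 over the 1342 protein-coding genes with an IDR peak. The order of signal was snr-3 (101.1), snr-4 (63.1), snr-6 (48.6), snr-2 (43.8) and snr-1 (42.1). Among the 1007 IDR peaks at protein-coding starts these were ranks 62, 329, 615, 764 and 830, and the lowest IDR signal of all was 37.99. With the IDR peaks above the median nuclear signal of 52.2 alone, 2 Sm genes had one, snr-3 and snr-4, where 3.6% of protein-coding genes did.

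**Figure D1:**
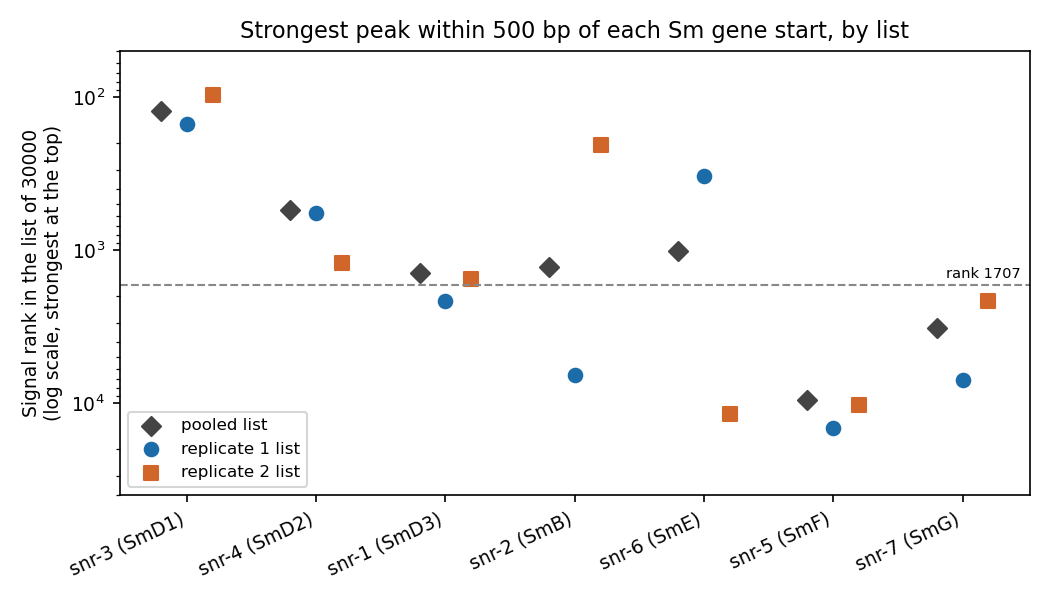
Rank of the strongest peak within 500 bp of the start of each Sm gene (log scale, strongest at the top) in the pooled list, replicate 1 and replicate 2, with 1 point per gene and list and a dashed line at rank 1707. The points of snr-3 and snr-4 lie above the line in all 3 lists, those of snr-1, snr-2 and snr-6 lie on both sides of it, and those of snr-5 and snr-7 lie below it in all 3.

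The pair SmD1 and SmD2 had the strongest pooled peaks, and they were the 2 of the 7 genes with a peak of rank 1707 or better in both replicates. Both pooled summits lay nearer to the start of another gene, 183 bp from rsp-5 and 55 bp from an snRNA gene. The genes are grouped here by the pieces of the ring, and whether peak strength follows these pieces was not tested. The snr-3 gene (chromosome II, 6488830 to 6489761, minus strand) had signals of 59.8 in replicate 1 and 44.4 in replicate 2, at ranks 150 and 97, and 101.1 at rank 124 in the pooled list. Both replicate summits lay within 19 bp of the pooled one, 221 bp upstream of the start. The snr-4 gene (chromosome V, 11978508 to 11979723, minus strand) had 39.2 in replicate 1 and 19.5 in replicate 2, at ranks 574 and 1214, and 63.1 at rank 546 in the pooled list. Its summit lay 340 bp upstream of the start. Protein-coding genes were compared with snr-3 by their ranks over the 2 replicate lists, leaving out genes that share its peak. The closest were rib-2 and tbb-1, divergent neighbours with equal ranks (155 and 102) and a summed absolute log2 rank ratio of 0.12. They were followed by phb-2, at ranks 136 and 88 (0.28). They encode an exostosin-like protein, a beta-tubulin and a prohibitin, and were picked out of 5122 genes with a listed peak in reach in both replicates.

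The pair SmB and SmD3 had weaker peaks, and the replicates differed on snr-2. The snr-1 gene (chromosome IV, 17088049 to 17088946, plus strand) had signals of 22.1 in replicate 1 and 17.5 in replicate 2, at ranks 2149 and 1553, and 42.1 at rank 1408 in the pooled list. In each replicate this was close to rank 1707, below it in replicate 1 and above it in replicate 2. The snr-2 gene (chromosome I, 13339397 to 13340224, plus strand) had 12.5 in replicate 1 and 37.1 in replicate 2, at ranks 6536 and 205, and 43.8 at rank 1285 in the pooled list. The peak thus ranked within the strongest 0.683% of the list of replicate 2, and at 21.8% of that of replicate 1.

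The trimer of SmE, SmF and SmG held the 2 genes without an IDR peak and the one whose replicates differed most. At snr-6 (chromosome III, 12429172 to 12429629, minus strand) the IDR peak had a signal of 48.6, and its summit lay 313 bp upstream of the start. In replicate 1 the overlapping peak had a signal of 46.7 at rank 331, with its summit 105 bp away. In replicate 2 the overlapping peak had a signal of 3.70 at rank 27401 of 30000, with a −log10 q-value of 0.168. The strongest peak of replicate 2 in reach of snr-6 was another, at rank 11777, 369 bp downstream of the start. At snr-7 (chromosome I, 2727014 to 2727545, plus strand) the strongest pooled peak had a signal of 27.5 at rank 3224, below the IDR threshold, with its summit 121 bp upstream. It ranked 7046 in replicate 1 and 2160 in replicate 2, and the summits of both lists lay within 6 bp of each other. At snr-5 (chromosome III, 7862070 to 7862574, plus strand) the strongest pooled peak ranked 9566, inside the gene 321 bp downstream of the start. The strongest peaks in reach of snr-5 ranked 14697 in replicate 1, 362 bp upstream, and 10366 in replicate 2, 241 bp upstream. The strongest peak thus lay at a different site in each of the 3 lists. Weaker listed peaks lay at or near some of these sites. Replicate 2 also listed the pooled summit, at rank 13392, and the pooled list had peaks 407 and 205 bp upstream. The −log10 q-values of the strongest peaks were low, at 0.37 in the pooled list, 0.259 in replicate 1 and 0.84 in replicate 2. The lists include background regions.

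Ranks of the replicate peaks that overlap the IDR peak were therefore close at snr-1, snr-3 and snr-4 and far apart at snr-2 and snr-6. Overlapping peaks need not share a summit. In replicates 1 and 2 the summits lay 105 and 14 bp from the IDR summit at snr-6, and 13 and 46 bp at snr-2, on opposite sides of it. The larger rank divided by the smaller was 1.38 for snr-1, 1.55 for snr-3 and 2.11 for snr-4. It was 31.9 for snr-2 and 82.8 for snr-6, in opposite directions. Of the 1674 nuclear IDR peaks with a listed peak in both replicates, 14 had a factor of 31.9 or more, and 1, that of snr-6 itself, had 82.8 or more. Another 10 nuclear IDR peaks had no listed peak in a replicate. The strongest 1707 peaks of each replicate met 3 Sm genes in replicate 1 (snr-3, snr-4 and snr-6) and 4 in replicate 2 (snr-1, snr-2, snr-3 and snr-4), where 6.42% and 6.13% of protein-coding genes had one. In both replicates at once this held for 2 Sm genes, snr-3 and snr-4, and for 4.02% of protein-coding genes. In at least 1 replicate it held for 5 Sm genes and 8.54% of protein-coding genes. Of all nuclear IDR peaks, 56.8% overlapped such a peak in both replicates, 24.9% in replicate 1 alone and 14.3% in replicate 2 alone. Whether depth differed between the replicates cannot be read from the lists, and its part in these differences was not tested.

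**Figure D2:**
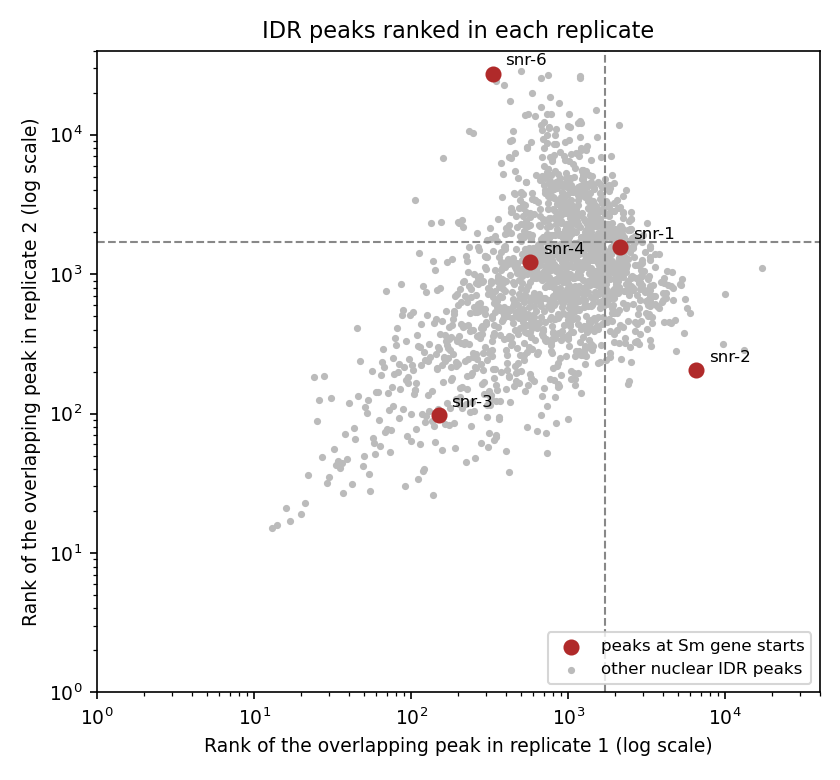
Rank of the overlapping peak in replicate 1 (x axis) and replicate 2 (y axis), both on log scales, for the 5 IDR peaks at Sm gene starts (red) and the other nuclear IDR peaks (grey), with dashed lines at rank 1707. The 1674 nuclear IDR peaks with a listed peak in both replicates are drawn; snr-3 lies at ranks 150 and 97, snr-6 at 331 and 27401 and snr-2 at 6536 and 205.

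The IDR peaks at Sm genes all lay upstream of the start, as did the summits at 92% of the 1342 protein-coding genes with an IDR peak. The summits were 221 bp (snr-3), 313 bp (snr-6), 340 bp (snr-4), 381 bp (snr-1) and 396 bp (snr-2) upstream, with a median position of −340 bp. Over the 1342 protein-coding genes with an IDR peak the median was −191.5 bp, with quartiles of −287 and −108 bp. The summit was over 300 bp upstream at 4 of the 5 Sm genes and at 22.9% of those 1342 genes. None of the 5 was near the edge of the 500 bp reach, the farthest being that of snr-2, and a reach of 1000 bp added none. Just outside the reach lay pooled peaks that were not IDR peaks, at snr-4 (539 bp upstream, rank 7109) and snr-7 (577 bp downstream, rank 4677). At snr-4, replicate 2 also listed a peak 574 bp upstream, at rank 1697 of its list. A reach of 250 bp left 1 Sm gene, snr-3, where 4.21% of protein-coding genes kept a peak. Trans-splicing removes the first part of many worm messages, so an annotated start need not be where transcription begins. With the most common transcript start in place of the gene start, snr-3 was out of reach and 4 Sm genes had an IDR peak, where 5.94% of protein-coding genes did.

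**Figure D3:**
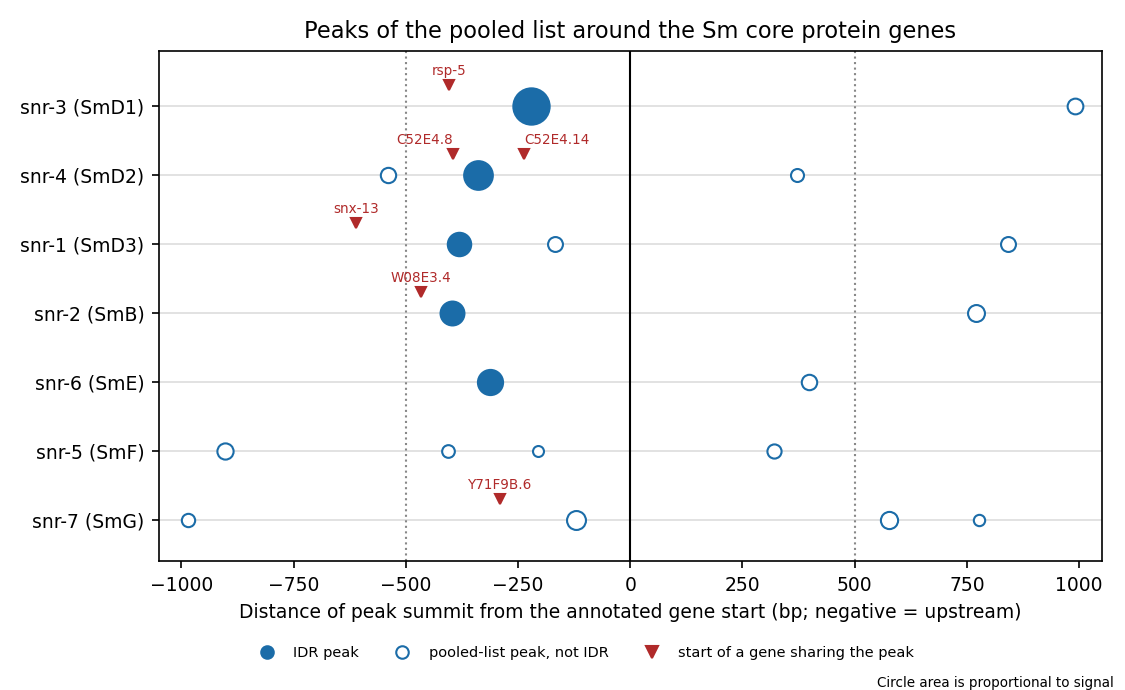
Distance of each pooled-list summit from the gene start for the 7 Sm genes (bp, negative upstream), with circle area in proportion to signal, filled circles for IDR peaks, triangles for the starts of genes that share a peak, and dotted lines at 500 bp. The 5 filled circles within reach lie between 396 and 221 bp upstream, and those of snr-5 and snr-7 are all open.

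Most of these peaks were also in reach of another gene, so they cannot be assigned to the Sm gene alone. Another protein-coding start lay within 500 bp of the summit at 3 of the 5 Sm genes, against 49.9% of the 1342 protein-coding genes with an IDR peak. The snr-3 peak lay between snr-3 and rsp-5, which encodes an SR splicing factor and is transcribed away from it, and its summit was nearer to rsp-5, 183 bp upstream of that start. The snr-1 peak lay 230 bp upstream of snx-13, a sorting nexin gene, also divergent. The snr-2 peak lay 70 bp upstream of W08E3.4, a divergent gene whose product RefSeq names major sperm protein. When a peak was counted for the nearest protein-coding start alone, these 3 went to the neighbours and 2 Sm genes were left, snr-4 and snr-6, where 5.02% of protein-coding genes had a peak. The pooled peak at snr-7, which was not an IDR peak, was shared in the same way with Y71F9B.6, whose start lay 290 bp away.

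The snr-4 peak had RNA genes beside it. Its summit lay inside C52E4.14, an unclassified noncoding RNA, and 55 bp upstream of the start of an snRNA gene that RefSeq names C52E4.8 and Ensembl labels T11F9.15 (chromosome V, 11980118 to 11980261, plus strand). The 144 bases of this snRNA gene occur a second time in the genome, on the same chromosome, as the gene T11F9.15 (11478148 to 11478291). Of the 321 36-mers in the snr-4 peak, 92 (28.7%) were found elsewhere in the genome, and none of those in the peaks of the other 4 Sm genes were. Replicate 2 listed 2 peaks that overlap the snRNA gene beside snr-4, at ranks 1214 and 1697, and the latter summit was out of reach of snr-4. The second copy had no IDR peak. The pooled peak over it had a signal of 20.9 at rank 5433, it ranked 4811 in replicate 1, and replicate 2 listed none there. The printed snr-4 window lies outside the snRNA gene. How reads that fit both copies were placed is not given in the sources used here, and their part in the snr-4 signal was not tested. The snr-6 peak was the one with no other gene start of any class within 500 bp of its summit.

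The 3 genes that follow an Sm gene closely on the same strand had weaker pooled-list peaks in reach of their starts than that Sm gene had. In C. elegans closely spaced genes on 1 strand are often transcribed together as an operon, and the annotation used here does not mark operons. The gap was 48 bp from snr-4 to mif-2, which encodes a protein like the cytokine MIF, and 102 bp from snr-2 to ola-1, which encodes an Obg-like ATPase, while snr-1 and Y116A8C.43 overlapped by 96 bp. None of the 3 following genes had an IDR peak in reach of its start. The mif-2 start had a pooled peak just below the threshold, with a signal of 36.5 at rank 1849, 36 bp upstream. It ranked 1974 in replicate 1 and 2870 in replicate 2. The strongest pooled peaks in reach of ola-1 and Y116A8C.43 ranked 4951 and 7860, with −log10 q-values of 0.959 and 0.506. Their summits lay inside snr-2 and snr-1, 770 and 841 bp past the starts of those genes. Of all protein-coding genes, 6.72% had an IDR peak in reach and 37.2% had some pooled peak. These 3 genes were chosen after the values were seen, and none of 3 with an IDR peak is near the share of 6.72%.

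The DNA at the summits differed widely in base composition. The GC content of these windows was 56.4% at snr-1, 49.5% at snr-4, 48.5% at snr-3, 47.5% at snr-2 and 32.7% at snr-6. The median over IDR summits at protein-coding starts was 45.5%, with quartiles of 40.6 and 50.5%, so snr-6 lay below and snr-1 above the middle range. Just 5.86% of those windows had a lower GC content than that of snr-6. The strongest pooled peaks of snr-5 and snr-7 had 27.7 and 19.8%. CCAAT was found at the summit of 1 of the 5 Sm peaks, that of snr-2, and at 14.8% of IDR summits at protein-coding starts. TATAAA was found at 2, snr-2 and snr-4, against 5.76%, GAGAGA at 1, snr-6, against 14.4%, and CACGTG at none, against 3.18%. In the printed sequences, the capitals of snr-4 are the TATAAA match, while the windows of snr-3 and snr-1 hold no match. The snr-4 match lies inside C52E4.14, between the starts of snr-4 and of the snRNA gene beside it. Which gene it serves, if any, was not tested. From 250 bases before to 50 after the start, CCAAT was in 3 of 7 Sm promoters and in 45.5% of all protein-coding promoters, GAGAGA in 1 and in 21.8%, and TATAAA and CACGTG in none, against 37.9 and 5.82%.

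Other genes of the same particles were read from 5 lists with 40 names, of which 37 matched a gene. In all, 10 of the 37 had an IDR peak (27%), where 6.72% of all protein-coding genes had one. The LSm genes, which encode relatives of the Sm proteins that form rings in messenger RNA decay and on the U6 snRNA, had the highest share of the 5 lists, with 5 of 8. Their strongest were lsm-1 (77.8), lsm-7 (73.4) and lsm-5 (51.6). Of these 5 peaks, 3 were shared with another protein-coding start, that of lsm-1 with rps-9, a ribosomal protein gene, that of gut-2 with eea-1, and that of lsm-7 with dnc-1, a dynactin subunit gene. Such sharing held for 49.9% of all protein-coding genes with an IDR peak. Proteins of the U4/U6.U5 particle had 3 of 11, at prp-8 (74.98), which encodes the protein at the centre of the spliceosome, snu-13 (70.5), which encodes a protein that binds the U4 snRNA, and snrp-40.1 (65.0), which encodes a protein of the U5 particle. Of the genes for assembly of the Sm ring, 1 of 5 had an IDR peak, the RNA helicase gene mel-46 (48.96). Of the U1 and U2 proteins, 1 of 10 did, sftb-1 (44.6), which encodes a subunit of splicing factor SF3B. None of the 3 genes for proteins of the trans-splicing particles had one. Over all 5 lists, 6 of the 10 peaks were shared with another protein-coding start. Among them were those of snu-13 (with rsp-7), mel-46 (with lsy-13) and sftb-1 (with R10E4.1). With lists this short, the shares differ by a few genes, and a count of 1 or none cannot be told from the 6.72% of all protein-coding genes.

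**Figure D4:**
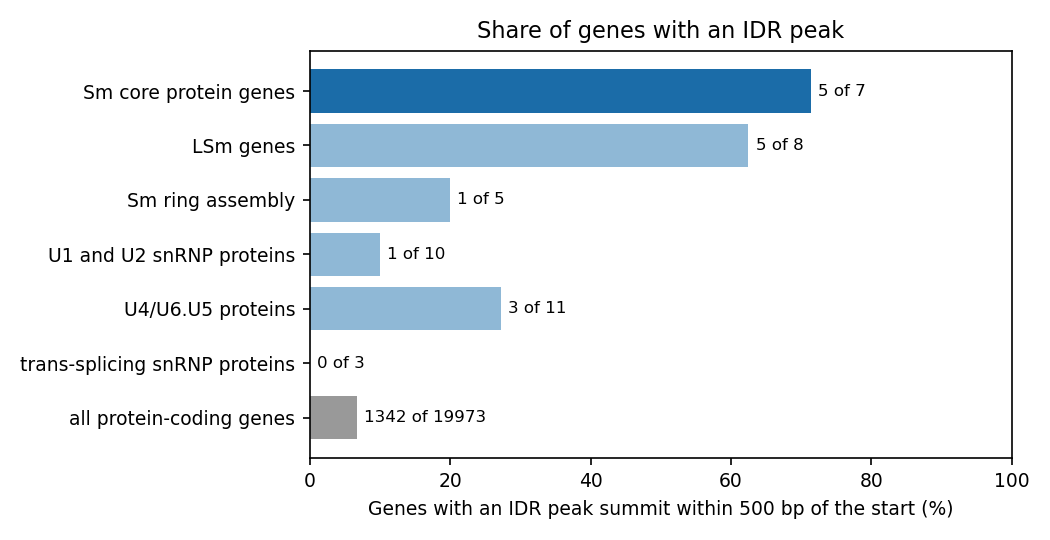
Share of genes (%) with an IDR peak summit within 500 bp of the start, for the Sm genes, the 5 related lists and all protein-coding genes, with the counts beside the bars. The Sm genes had 5 of 7 and the LSm genes 5 of 8, against 1342 of 19973 protein-coding genes.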

How the data were processed

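ChIP-seq peak lists of 2 biological replicates were used. Per the labels and the file descriptions deposited with them, the authors called peaks and background against a control for each replicate and for pooled reads, and derived an IDR-thresholded list. The signal of each peak and its −log10 q-value are the values the authors deposited. Which aligner, peak caller, control and IDR threshold were used is not given in the sources used here, and read depth is unknown.

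The ce11 lists were used, as all peak ends fit the chromosome lengths of WBcel235, and the ce10 lists were not used here. Genes came from Ensembl release 115, and RefSeq symbols of the same span replaced names carried by several genes. The summit was the peak start plus the deposited offset, and it was assigned to every protein-coding start within 500 bp. Replicate peaks were matched to IDR peaks by an overlap of at least 1 bp, taking the strongest. The strongest peaks of a replicate were as many as there are IDR peaks (1707). No significance test was run: there was 1 group, and counts are set beside all protein-coding genes. The assignment was tested on simulated data. The Sm genes and the lists were chosen with earlier results of these data known. The genes named are the Sm genes and genes that share their peaks. Also named are genes that follow an Sm gene on the strand, chosen after the values were seen. From the lists, up to 3 genes of highest signal and the genes of shared peaks are named. The 3 genes most like snr-3 exclude those that share its peak, and F23B12.7 is named too. Python 3.11.15, pandas 2.3.3 and matplotlib 3.10.9 were used. The summit sequence of the snr-6 peak is not reported here.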

Additional observations from a re-analysis of the deposited data

How the results depend on the processing

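The count of Sm genes with an IDR peak was 5, where 6.72% of protein-coding genes had one. It was 1 at a reach of 250 bp (snr-3, against 4.21% of protein-coding genes). It was 2 with IDR peaks of more than the median signal (3.6%), and 2 with the nearest protein-coding start alone (5.02%). It was 5 at a reach of 1000 bp (8.47% of protein-coding genes) and with peak intervals that overlap the 500 bp window (7.38%), and 4 with the most common transcript start (5.94%). With 1 replicate left out, it was between 3 (the strongest peaks of replicate 1, 6.42% of protein-coding genes) and 4 (those of replicate 2, 6.13%). The related lists had 10 of 37 genes with an IDR peak, 5 at 250 bp and 5 above the median signal. They had 7 with the nearest start alone, 12 at 1000 bp, and 10 with either replicate alone. The shares of all protein-coding genes under these settings are those given above. Ranking by −log10 q-value kept the counts in the replicates at 3 and 4. The Sm peaks of ranks 150 to 574 in replicate 1 shared a value of 2.713, and those of ranks 97 to 1553 in replicate 2 one of 3.055. Ties were ordered by signal, so this ranking could differ little from that by signal. Doubling the number of peaks gave 4 and 5. The matching shares of all protein-coding genes were not counted, so this rise cannot be read as a result about the Sm genes. In the pooled list the doubled number met 6 Sm genes and 11.4% of protein-coding genes, against 5 and 6.72% for the IDR peaks. With the peak nearest to the start in place of the strongest, the pooled rank was 7941 at snr-1 and 23283 at snr-5, and it was the same at the other 5 Sm genes. The cause of these changes was not tested beyond how each alternative is built. No paired analysis was possible because the labels give 1 group. Unknown depth limits what the absence of an IDR peak at snr-5 and snr-7 shows.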

Other observations

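The region around snr-3 held a second IDR peak, 1631 bp upstream of its start, with a signal of 76.4 at rank 318. Its summit lay 52 bp past the end of rsp-5, inside no annotated gene, and the nearest start of any class was that of T28D9.13, a noncoding RNA gene, 544 bp away. In replicate 1 it ranked 305 and in replicate 2 1335. It was the one IDR peak within 2000 bp of an Sm gene start that lay outside the 500 bp reach. Near snr-7 a pooled peak of signal 29.96 at rank 2740 lay 1148 bp past the end of the gene and 1311 bp upstream of yop-1, and it was stronger than the peak at the snr-7 start (27.5).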
